A study of Homo sapiens with 14 samples.

Results

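Molt-4 is an established line of T-cell acute lymphoblastic leukemia (T-ALL), a cancer of immature T cells, and 2 of the 14 expression arrays of the series were made from it, 1 from cells given the PI3K inhibitor AS605240 and 1 from cells given vehicle. They were chosen by their cell line label, and the other 12 arrays came from CCRF-CEM, HPB-ALL, Jurkat, P12-ICHIKAWA, ALL-SIL and TALL-1, each with the same pair. AS605240 was given for 6 h at the IC50 of each line, so the dose differed between lines, and the vehicle arrays carry the label Control. Each line contributed 1 culture per condition, so a value of a single Molt-4 array has no replicate. All lines grew in RPMI-1640 with serum. The spread available for any test was the spread between the other 6 lines, so p-values measure that spread, and Molt-4 is assumed to vary as those lines do.

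T-ALL cells resemble thymocytes held at a stage of their development. Thymocytes that rearrange their T-cell receptor genes make the RAG recombinase, the pre-T-cell receptor and CD1 molecules. PI3K passes signals from growth factor and antigen receptors to AKT and mTOR, which promote ribosome production, lipid synthesis and glycolysis and restrain FOXO transcription factors. When PI3K is inhibited in lymphoid cells, growth genes usually fall and FOXO targets rise.

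Signals were analysed as log2(signal + 16), with the brightest probe set that names a single gene standing for each of 19775 genes. On this scale the floor is 4, and a difference of 1 is a doubling for bright genes and more than a doubling for dim ones. A gene was called where the limma test gave an adjusted p under 0.05, with Benjamini-Hochberg adjustment over all genes, and the difference was over 1.5-fold.

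The first question was which genes set Molt-4 apart from the other 6 lines, whatever the treatment. In Molt-4, 39 genes were higher (0.197% of 19775 tested) and 20 were lower (0.101%). At an unadjusted p under 0.05, 1778 genes differed in either direction. The higher genes were mostly silent elsewhere: for 32 of the 39 the mean level in the other lines was under 5, close to the floor, so their fold changes understate the difference in signal. Both Molt-4 arrays lay above the 12 other arrays for 38 of the 39, against 8.08% of all genes, and below them for all 20 of the lower genes, against 6.49% of all genes. The call uses these same values, so the absence of overlap is a description.

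The upstream sequences of the genes at the extremes are shown because these genes had the largest differences by size. Each is the run of 250 bases that ends at the annotated transcription start, taken from RefSeq on GRCh38.p14 and written 5′ to 3′ on the strand of the gene, with every CG dinucleotide in capitals. HBEGF lies on the minus strand of chromosome 5 (chr5:140346604-140346853), ZNF677 on the minus strand of chromosome 19 (chr19:53254824-53255073) and MCCC2 on the plus strand of chromosome 5 (chr5:71587090-71587339).
HBEGF: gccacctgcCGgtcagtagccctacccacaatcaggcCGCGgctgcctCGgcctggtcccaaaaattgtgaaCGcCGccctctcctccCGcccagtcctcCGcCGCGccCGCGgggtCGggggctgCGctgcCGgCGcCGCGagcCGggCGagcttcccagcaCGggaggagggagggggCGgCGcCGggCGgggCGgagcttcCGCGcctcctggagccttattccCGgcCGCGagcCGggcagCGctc
ZNF677: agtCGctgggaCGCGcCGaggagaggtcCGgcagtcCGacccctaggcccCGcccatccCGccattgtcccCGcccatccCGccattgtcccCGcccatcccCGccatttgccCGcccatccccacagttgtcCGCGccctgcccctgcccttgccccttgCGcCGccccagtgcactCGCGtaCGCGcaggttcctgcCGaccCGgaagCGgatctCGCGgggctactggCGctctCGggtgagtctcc
MCCC2: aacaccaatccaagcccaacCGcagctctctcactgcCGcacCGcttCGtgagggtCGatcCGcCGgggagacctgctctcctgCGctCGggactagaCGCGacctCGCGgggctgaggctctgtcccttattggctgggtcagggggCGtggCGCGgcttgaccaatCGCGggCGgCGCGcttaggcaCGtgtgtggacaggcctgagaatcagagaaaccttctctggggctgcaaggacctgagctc
These sequences hold 33, 28 and 22 CG dinucleotides. Among promoters of the same length for 15384 genes measured here, the median was 18, and 58.5% held 15 or more. Of the 31 genes called higher in Molt-4 that have such a sequence, 17 (54.8%) held 15 or more CG, and of the 17 called lower, 13 (76.5%) did. The CG count of the genes raised in Molt-4 was thus near that of all genes.

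HBEGF, a growth factor that binds the EGF receptor, showed the largest difference. Its level was 11.07 with vehicle and 11.21 with AS605240 in Molt-4, and in the 12 other arrays the lowest was 4.50, the median 4.94 and the highest 6.50. The difference was 5.99 ± 0.64 on the log2 scale (SE; limma, adjusted p = 0.026). Of its 3 other probe sets, 1 was higher by over 1.5-fold. Both Molt-4 arrays were far above every other array, although without any of CCRF-CEM, HPB-ALL, P12-ICHIKAWA or TALL-1 the adjusted p passed 0.05.

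ZNF677, a zinc finger protein, stood at 9.87 with vehicle and 10.13 with AS605240, against a lowest of 4.12, a median of 4.33 and a highest of 4.54 elsewhere. That is a difference of 5.66 ± 0.13 (adjusted p = 2.81e-05 by limma). Of its 3 other probe sets, 2 were higher in Molt-4 by over 1.5-fold.

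FXYD6, which encodes a regulator of the sodium-potassium pump, was 5.28 higher. PPARG, the nuclear receptor that drives fat cell differentiation, stood at 9.92 with vehicle and 9.87 with AS605240, and the 12 other arrays ranged from 4.74 to 5.24 with a median of 4.98. Its difference of 4.92 ± 0.13 had an adjusted p of 4.80e-05 in limma. PHACTR3, a regulator of protein phosphatase and actin, was 4.66 higher, and NPTX2, a neuronal pentraxin found at synapses, was 4.29 higher. Each of these genes is known mainly from tissues other than T cells, and each was near the floor in the other lines.

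The homeobox transcription factor IRX1 stood at 8.26 with vehicle and 8.83 with AS605240, against 4.29 to 4.67 in the 12 other arrays, a difference of 4.07. LRIG3, a membrane protein with leucine-rich repeats, was 3.77 higher, PRAC1 3.69 higher and the small membrane protein SMIM43 3.64 higher. PER3, a component of the circadian clock, was 3.49 higher at its brightest probe set, while its 3 other probe sets differed by only -0.08 to 0.14. The noncoding RNA LINC01315 closed the list at 2.50 higher. ZNF677, FXYD6, PPARG, PHACTR3, NPTX2, IRX1, PRAC1, SMIM43 and LINC01315 passed the test under each of 12 alternatives of offset, scaling, probe set and line left out. HBEGF passed under 6 of the 12, LRIG3 under 5 and PER3 under 4.

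**Figure D1:**
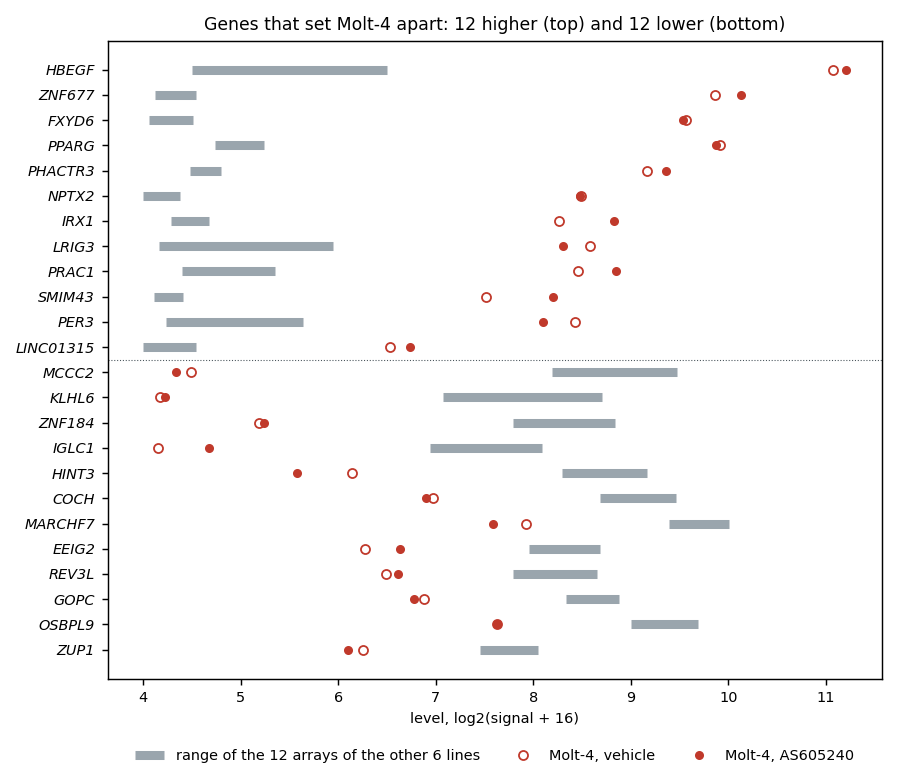
Level of the 12 genes most raised and the 12 most lowered in Molt-4, as log2(signal + 16) on the horizontal axis, where 4 is the floor. Grey bars span the lowest to the highest of the 12 arrays of the other 6 lines, open circles are Molt-4 with vehicle and filled circles Molt-4 with AS605240; no circle falls inside its bar, and the raised genes start from bars near the floor.

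Among the genes called lower, the largest difference was that of MCCC2, a subunit of a mitochondrial enzyme of leucine breakdown. It stood at 4.50 with vehicle and 4.33 with AS605240 in Molt-4, against a lowest of 8.19, a median of 8.73 and a highest of 9.48 in the other arrays. The difference was -4.39 ± 0.44 (limma, adjusted p = 0.024). In signal units the Molt-4 arrays read 6.57 and 4.16, and the dimmest other array read 275.5, so both Molt-4 arrays were near the floor at this probe set. Of its 2 other probe sets, 1 was lower by over 1.5-fold, at -3.47, and the other differed by -0.16.

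KLHL6, a ubiquitin ligase adaptor of lymphocytes, stood at 4.17 with vehicle and 4.23 with AS605240, and the other arrays ranged from 7.07 to 8.71 with a median of 8.21. The difference was -3.84, and all 3 of its other probe sets were lower by over 1.5-fold. The zinc finger gene ZNF184 differed by -3.25, the nucleotide hydrolase gene HINT3 by -2.77, and IGLC1, an immunoglobulin lambda constant region, by -3.06. The 8 other probe sets of IGLC1 ranged from -2.54 to 0.20, and lambda constant genes are near-identical copies, so that value is uncertain. COCH differed by -2.12 at its brightest probe set, but its 2 other probe sets were higher in Molt-4, by 1.31 and 1.39.

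The remaining named genes were MARCHF7, a ubiquitin ligase, at -1.89, EEIG2 at -1.88, REV3L, the catalytic subunit of a DNA polymerase that copies past lesions, at -1.78, GOPC, a Golgi scaffold, at -1.77, OSBPL9, an oxysterol-binding protein, at -1.72, and ZUP1, a deubiquitinase, at -1.59. Of the 12 lowered genes named here and above, REV3L passed under 2 of the 12 alternatives, ZUP1 under 3 and KLHL6 under 4. The others passed under 5 to 9. KCNA3, the voltage-gated potassium channel of T cells, was also called, at the floor with vehicle and 4.10 with AS605240, against 5.08 to 6.15 elsewhere. All 20 of these calls rest on P12-ICHIKAWA and TALL-1 both being counted: without P12-ICHIKAWA, without TALL-1, or with their mean as 1 line, 0 genes were called lower, and 17, 21 and 22 were called higher. P12-ICHIKAWA and TALL-1 correlated at r = 0.994 across genes in each condition, where no other pair of lines passed 0.953, so these lines add little independent spread.

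The T-cell label held. CD3D, a chain of the T-cell receptor complex, stood at 12.05 with vehicle and 12.06 with AS605240 in Molt-4, within the 11.41 to 12.45 of the other lines, and the kinase LCK at 11.93 and 11.96. Of 22 genes of the receptor complex and its proximal signalling, 18 had a signal over 50 in both Molt-4 arrays. The same held for 1 of 15 B-cell markers, 2 of 20 myeloid markers, 1 of 16 NK-cell markers, 3 of 17 erythroid and megakaryocyte markers and 6 of 20 epithelial and fibroblast markers. The summed signal of the B-cell markers was 212 to 281 in the Molt-4 arrays and 1435 to 2366 in the others. IGLL1, whose levels are given below, is among these markers and contributed to the higher sum in the other arrays, so the sum does not describe the markers 1 by 1.

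No member of the 36 gene lists examined, 989 genes in all, was called in the comparison of levels. The 27 T-cell stage markers had a median difference of -0.14, and single members differed widely. RAG1, which cuts DNA at the receptor genes, stood at 11.36 with vehicle and 11.51 with AS605240, and the other arrays ran from the floor to 9.52 with a median of 6.02. The difference of 5.20 did not pass (limma, adjusted p = 0.38), since the other lines themselves spread widely. Its partner RAG2 stood at 8.51 and 8.70 against 4.28 to 6.85 (adjusted p = 0.40).

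Both Molt-4 arrays also lay above all others for CCR9, the chemokine receptor of thymocytes, at 10.41 with vehicle and 10.64 with AS605240 against 4.12 to 9.95. The same was true of CD1D, at 9.64 and 10.13 against 4.56 to 9.15, and of KIT, the stem cell factor receptor, at 6.60 and 6.87 against at most 5.43. In all, 5 of 27 stage markers (18.5%) lay above the 12 other arrays, beside 8.08% of all genes. PTCRA, the pre-T-cell receptor chain, stood at 9.09 and 10.08 against 5.05 to 9.07. CD52 alone among the stage markers lay below all others, at 5.53 and 6.02 against 6.36 to 11.08 elsewhere. In a bulk extract, fewer cells of a type and less RNA per cell cannot be told apart. The costimulatory receptor CD28 was near the floor, at 4.35 and 4.43, while the median of the other arrays was 9.03.

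Other surface and lineage genes came close to the threshold on the low side. CD53, a tetraspanin of leukocytes, stood at 7.08 with vehicle and 7.17 with AS605240 against 9.48 to 10.57 (difference -2.84; limma, adjusted p = 0.055). IGLL1, the surrogate light chain of B-cell precursors, stood at 6.37 and 6.64 against 9.22 to 10.83 (adjusted p = 0.091). Of 42 adhesion genes, 5 lay below all other arrays (11.9%, beside 6.49% of all genes) and 1 above, and their median difference was -0.36 beside 0.01 for all genes. Among 48 G2/M genes, which drive chromosome segregation, 12 (25%) lay below all others, beside 6.49% of all genes, and 2 above, beside 8.08%. Among genes with a mean signal over 50 the share below all others was 10.1%. That is the closer comparison for the G2/M genes, which all had a signal over 50 in both Molt-4 arrays, and it is near the share of the adhesion genes. ASPM, a spindle pole protein, was the nearest to passing, at 8.42 and 8.48 against 9.38 to 10.74 (adjusted p = 0.10). Of 45 genes of G1/S and DNA replication, 8 lay above all others (17.8%, beside 8.08% of all genes) and 0 below, with a median difference of 0.28. All 45 had a signal over 50 in both Molt-4 arrays, while the 8.08% includes dim genes.

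Molt-4 was most like Jurkat in overall profile. Pearson's r across genes was 0.953 between their vehicle arrays and 0.948 between their AS605240 arrays, and 0.899 to 0.932 against the other 5 lines; genes are not independent, so these describe the arrays. In both conditions 107 genes were over 4-fold higher in Molt-4 than in Jurkat and 156 were over 4-fold lower. The largest were LINC00960, at 8.19 higher, and CCR9, at 5.99 higher, and on the other side TSPYL5 at -7.72, the phospholipid-binding protein ANXA1 at -7.52, the adhesion molecule PECAM1 at -7.22, TMEM98 at -7.20 and CD28 at -6.59. These 7 genes were chosen after their values were seen.

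Genes of chromosome 6 were low as a group. Over the 498 genes of that chromosome with a mean signal over 50, the median level in Molt-4 was -0.37 on the log2 scale against the mean of the other lines, and 77.1% of the genes were lower. For all 9582 such genes placed on a chromosome the median was 0.03, and 47.5% were lower. Each of the other lines, set against the rest in the same way, had a chromosome 6 median of 0.02 to 0.17, where the rest includes Molt-4 and its low values. Other lines had medians as low on other chromosomes, such as -0.43 on chromosome 16 in HPB-ALL and -0.37 on chromosome 15 in P12-ICHIKAWA. The value was -0.39 with vehicle arrays alone and -0.40 with AS605240 arrays alone.

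Both Molt-4 arrays lay below the 12 others for 142 of the 498 genes (28.5%), beside 10.1% of all genes with a mean signal over 50. Of the 20 genes called lower in Molt-4, 6 lie on chromosome 6, namely ZNF184, HINT3, REV3L, GOPC, ZUP1 and USP45. That chromosome holds 498 of the 9582 placed genes with a mean signal over 50. With P12-ICHIKAWA and TALL-1 as 1 line, 0 genes were called lower. The reduction on chromosome 6 was strongest in an unbroken stretch. Taking genes in chromosome order in runs of 25, the run from KHDC1 to RARS2 had a median of -0.95, with 23 of 25 genes lower. The next run, from ORC3 to HACE1, had -0.98, also with 23 of 25 lower, and the run from LIN28B to GTF3C6 had -0.77, with 24 of 25 lower. In the other lines the medians of these 3 runs lay between -0.10 and 0.41.

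Parts of chromosome 1 were low too. The runs from LRRC8B to DPYD and from SNX7 to SARS1, which are neighbours, had medians of -0.81 and -0.70, that from TRMT1L to IPO9 had -0.77, and that from SPEN-AS1 to PINK1 had -0.66. In contrast, the run from DPH2 to PIK3R3 on the same chromosome stood at 0.59, with 3 of 25 genes lower. As whole chromosomes, 8 had the highest median in Molt-4, at 0.30, and 17 followed at 0.21, while 13 and 18 were both at -0.21. Across 372 runs the SD of the run medians was 0.26 in Molt-4, and in the other lines it was 0.15 to 0.28, so such regional shifts were no larger overall in Molt-4 than in HPB-ALL. DNA copy number was not measured here, and its part in these levels was not tested.

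**Figure D2:**
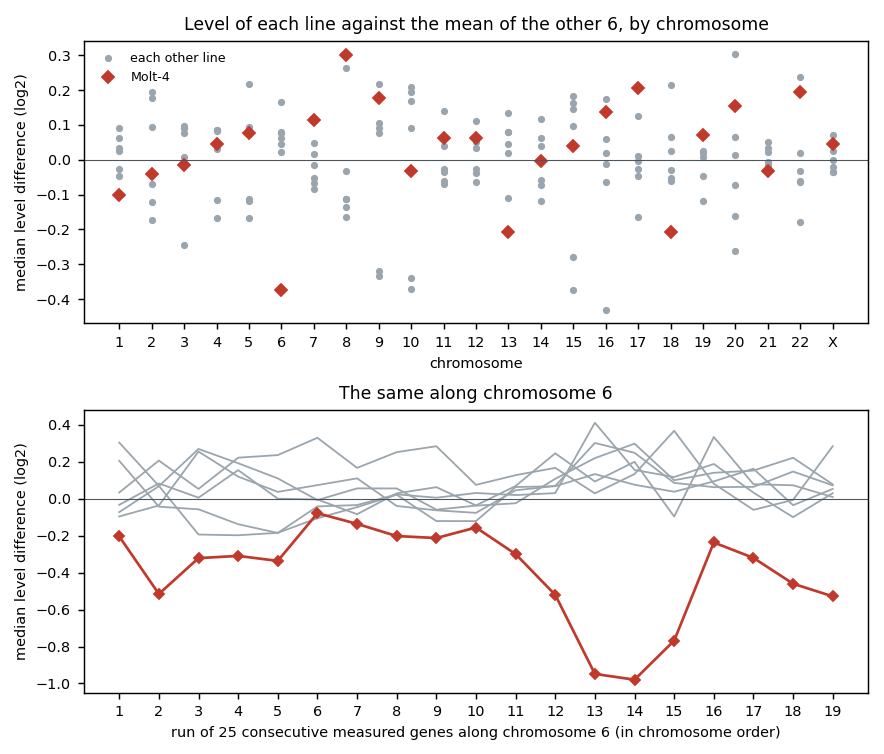
Top, the median level of the genes of each chromosome in each line minus the mean of the other 6 lines (log2), for genes with a mean signal over 50; Molt-4 in red, each other line in grey. Bottom, the same median for successive runs of 25 measured genes along chromosome 6; Molt-4 reaches -0.98 where the other lines lie between 0.07 and 0.30.

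The second question was whether Molt-4 responded to AS605240 as the other lines did. For most of the genes that the inhibitor changed, it did. The paired limma test in the other 6 lines, which left Molt-4 out, called 298 genes (1.51% of those tested), and 293 of them moved the same way in Molt-4. Of the 188 that rose elsewhere, 185 moved up in Molt-4 and 117 by more than the mean of the others. Of the 110 that fell elsewhere, 108 moved down in Molt-4 and 55 by more. The median change of the raised genes was 0.83 in Molt-4 and 0.70 in the mean of the other lines, and that of the lowered genes -0.71 and -0.69.

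Over all genes, projecting the changes of Molt-4 on the mean of the other lines gave 0.89. Each of the other 6 lines, projected in turn on the mean of the rest, gave 0.789 on average (SD 0.182). A single line was thus usually below 1, and Molt-4 lay above their average. The values were 0.556 for CCRF-CEM, 0.666 for HPB-ALL, 0.734 for ALL-SIL, 0.772 for Jurkat, 0.981 for P12-ICHIKAWA and 1.02 for TALL-1. Only P12-ICHIKAWA and TALL-1 lay above Molt-4. Their arrays correlated at r = 0.994 in each condition, and each was projected on a mean that held the other. The changes of Molt-4 had an SD across genes of 0.296, against 0.236 to 0.312 elsewhere. In Molt-4, 115 genes moved up and 32 down by over 2-fold, beside 12 to 110 up and 29 to 60 down in the other lines.

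Of the 188 raised genes, 43 moved farther in Molt-4 than in any other line and 21 less far than in any. Of the 110 lowered genes, 20 moved farther and 17 less far. Over all genes, Molt-4 had the highest change of the 7 lines for 16.5% and the lowest for 14.6%, so these counts are partly what any line would show. ABTB1, an ankyrin and BTB domain protein, changed by 2.11 in Molt-4, and by 1.18 to 1.77 in the other lines. NATD1 changed by 1.94 against 0.52 to 1.37, and SMIM14 by 1.59 against 0.46 to 1.14. On the lower side, MAK16, a ribosome assembly factor, changed by -1.38 against -0.84 to -0.50. The difference between Molt-4 and the rest passed the test for none of the 298 genes, and the smallest adjusted p was 0.56, for SMIM14.

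The 5 exceptions were small in Molt-4. CHAC1, which degrades glutathione, changed by -0.82 in the mean of the other lines and 0.23 in Molt-4, where it was near the floor at 4.05 with vehicle and 4.28 with AS605240. ANKRD37, a hypoxia-induced gene, changed by -0.61 and 0.14, EEPD1 by 0.77 and -0.01, UNC5CL by 0.73 and -0.09 and LOC286437 by 0.76 and -0.29. For each of the 5 the Molt-4 value lay outside the range of the other 6 lines, and for none did the difference pass the test (limma, adjusted p = 0.85 to 0.88).

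**Figure D3:**
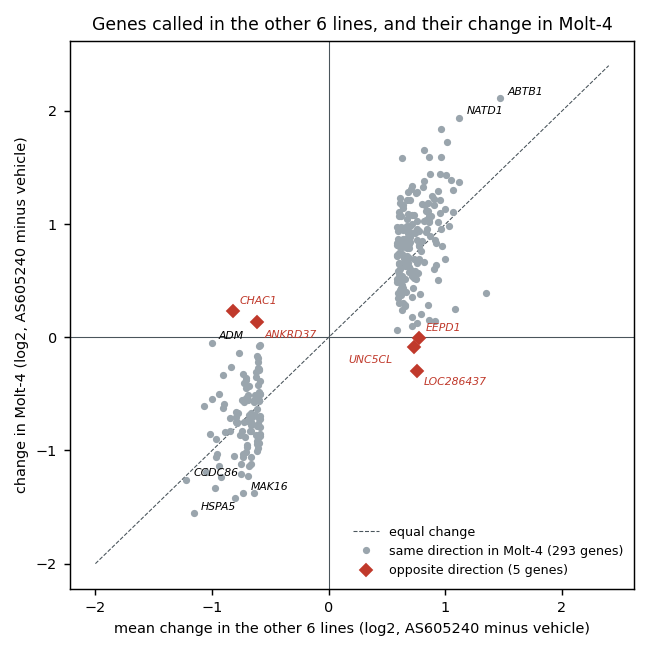
Change with AS605240 in Molt-4 (vertical) against the mean change in the other 6 lines (horizontal), both log2, for the 298 genes called in those 6 lines without Molt-4. Grey points moved the same way (293 genes), red diamonds the opposite way (5 genes), and the dashed line marks equal change; the named CHAC1, ANKRD37, EEPD1, UNC5CL and LOC286437 all sit close to 0 in Molt-4.

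Tested over all 19775 genes, the change in Molt-4 was higher than in the other lines for 12 genes (0.0607%) and lower for 4 (0.0202%). At an unadjusted p under 0.05, 1152 of the 19775 differed, a share close to the 0.05 that would pass if no gene differed. None of the 12 and 4 was among the 298 shared genes. SFRP5, a secreted inhibitor of Wnt signalling, gave the largest value: its signal was 2688 in the AS605240 array of Molt-4 and 3.50 in the vehicle array, and 2.65 to 7.41 in the 12 others. The change was 7.12 in Molt-4 and 0.01 in the mean of the other lines (limma, adjusted p = 2.97e-10). SFRP5 has a single probe set here, so no second measurement stands beside it.

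CSPG5, a neural proteoglycan, went the other way, with a signal of 928.4 with vehicle and 22.1 with AS605240, and 21.1 to 164.7 in the other arrays. Its second probe set changed by -0.20 where the first changed by -4.63. FEZ1, a protein of axon outgrowth, read 86.6 with vehicle and 2875 with AS605240, a change of 4.82, and its second probe set changed by 0.12. In the other lines FEZ1 ranged from 78.8 to 16340, so neither Molt-4 array was outside their range.

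IFITM3, an interferon-induced membrane protein that blocks virus entry, read 27.9 with vehicle and 188.6 with AS605240, against 74.4 to 6309 elsewhere, and was the only list member called (difference 2.26; limma, adjusted p = 0.000113). Its probe set, of the kind Affymetrix marks as having probes that can match other sequences, may also read IFITM1 and IFITM2. IFITM2 changed by 0.55 in Molt-4 and by -0.53 to -0.01 elsewhere (adjusted p = 0.71). CYP26A1, which degrades retinoic acid, read 23.4 with vehicle and 174 with AS605240.

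The other raised genes were FOXE1, MZF1-AS1, SPP2, HAPLN3, LINC01700, FAM174B, RUNDC3A and HEMK2, with differences of 1.22 to 2.32, and the other lowered ones GUSBP5 at -2.67, MROH2B at -2.20 and CD300LG at -1.33. Of the 16 genes, 4 had only the AS605240 array outside the range of the 12 other arrays, 5 only the vehicle array, 3 both and 4 neither. Of the 8 genes with other probe sets, none had a second one that moved the same way by over 1.5-fold. A change carried by 1 array and 1 probe set cannot be told apart from an event of that array. Between the Molt-4 arrays, the poly-A control transcripts, added to the RNA before labelling, differed by 0.51 (AS605240 minus vehicle) relative to the hybridization controls, against -0.15 to 0.70 in the other lines. The part of this in the 16 calls was not tested.

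Among the genes that did not pass, the nearest on the higher side were FAM83H, at 1.34 in Molt-4 and -0.19 to 0.37 elsewhere (adjusted p = 0.17), ZNF692, CHRNB1, a subunit of the muscle acetylcholine receptor, and NDUFB7, of mitochondrial complex I. On the lower side they were the amino acid transporter SLC7A6, at -0.82 and -0.17 to 0.12 elsewhere (adjusted p = 0.44), TAF1D, a factor of RNA polymerase I, at -0.98, DNAJC2, ARRDC4, HSPA4L, HINT3 and KIF23.

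Among genes of the inhibited pathway itself, PIK3CD, the PI3K catalytic subunit delta, changed by 0.96 against 0.52 to 1.24, PIK3CG, the gamma subunit, by 0.28 against 0.14 to 0.55, and IRS2, an adaptor of the insulin receptor, by 1.28 against 0.27 to 1.47. Each of these lay within the range of the other lines. RPS6KB2, an S6 kinase, lay outside it, with a change of 0.57 against -0.37 to 0.22 (limma, adjusted p = 0.82). The 48 genes of the PI3K, AKT and mTOR list had a median change of 0.19 in Molt-4 and 0.04 to 0.21 elsewhere, and after quantile normalization 0.128 against at most 0.11. Molt-4 had the highest change of the 7 lines for 14 of them (29.2%), beside 16.5% of all genes, and the lowest for 4.

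The gene list with the largest share of members lowest in Molt-4 was G2/M, although no single member passed the test. The median change of these 48 genes was 0.01 in Molt-4, and 0.16 in CCRF-CEM, 0.27 in P12-ICHIKAWA, 0.30 in TALL-1, 0.37 in ALL-SIL, 0.37 in HPB-ALL and 0.45 in Jurkat. The inhibitor was thus followed by a higher median G2/M level in each of the other 6 lines, and not in Molt-4. Molt-4 had the lowest change of the 7 lines for 35 of the 48 (72.9%), beside 14.6% of all genes, and the highest for 0, beside 16.5% of all genes. All 48 had a signal over 50 in both Molt-4 arrays, while the shares of all genes include dim ones. In Molt-4, 24 of the G2/M genes moved up and 24 down. These genes rise and fall together in the cell cycle, so they are not independent. The gene lists were written with earlier results of these arrays known. The shares given for this list and the other lists are therefore descriptions.

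KIF23, a kinesin of cytokinesis, was at 8.10 with vehicle and 7.76 with AS605240, a change of -0.34, while the other lines changed by 0.21 to 0.54 (limma, adjusted p = 0.74). CCNB1, the cyclin that starts mitosis, went from 10.75 to 10.49, a change of -0.26 against 0.12 to 0.33. AURKA, a kinase of the spindle poles, changed by -0.17 against 0.14 to 0.49. KIF14 changed by -0.17 against 0.09 to 0.57, the cytokinesis protein ANLN by -0.09 against 0.21 to 0.40, and TOP2A, the topoisomerase that untangles chromosomes, by -0.06 against 0.17 to 0.58. For each of these the Molt-4 value was below all 6 others. A few members moved as elsewhere, such as FOXM1, a transcription factor of the G2/M program, at 0.17 against 0.02 to 0.33, and AURKB at 0.29 against 0.21 to 0.58.

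The count stayed high under other scalings. The number lowest in Molt-4 was 33 after quantile normalization, 44 after centring each array on its median and 31 with probe sets averaged per gene. With any other line left out it was 35 to 40, but leaving out a line cannot lower this count, so that is no check. The median of the AS605240 array of Molt-4 lay 0.11 above that of its vehicle array, against -0.00316 to 0.0905 in the other lines. Centring therefore lowered the changes in Molt-4 more than in any other line, which by itself raises the count. Genes of the earlier phase did not share the pattern. The 45 genes of G1/S and DNA replication had a median change of 0.10 in Molt-4 and -0.04 to 0.17 elsewhere, and E2F1, which switches on S-phase genes, changed by 0.66 against -0.07 to 0.30 (limma, adjusted p = 0.75).

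**Figure D4:**
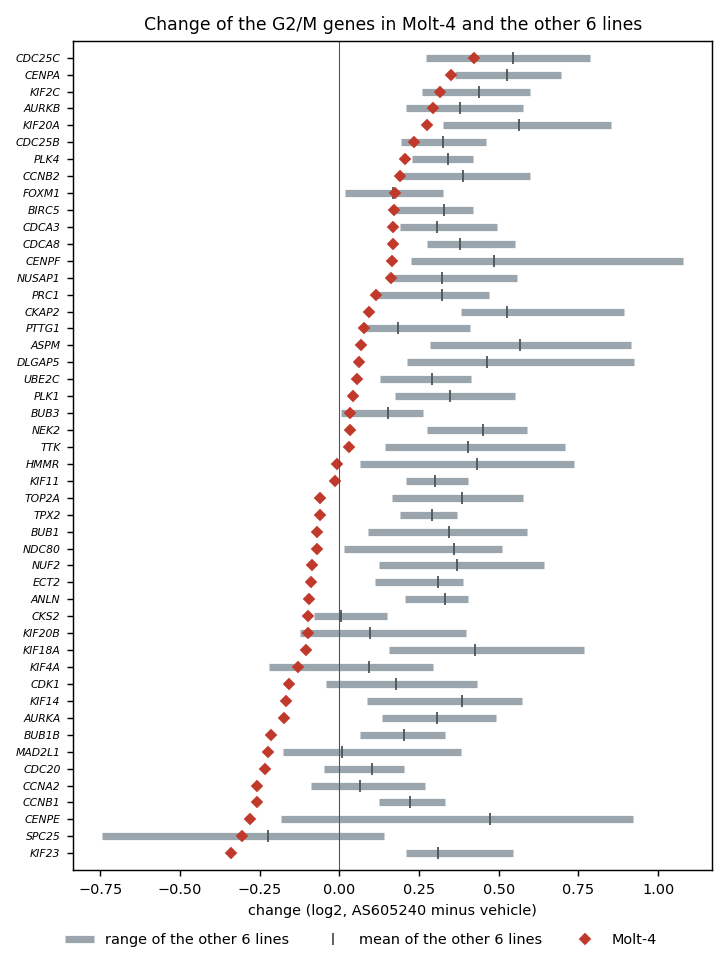
Change with AS605240 (log2, horizontal) of each of the 48 G2/M genes. Red diamonds are Molt-4, grey bars span the other 6 lines and ticks mark their mean; 35 diamonds sit to the left of their bar and none to the right.

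Genes activated by p53, the factor that halts the cycle after DNA damage, also had their lowest median change in Molt-4. Their median change was -0.13 over 30 genes in Molt-4 and 0.05 to 0.27 in the other lines, and 11 (36.7%) had their lowest change in Molt-4, beside 14.6% of all genes. FAS, a death receptor, was at 7.26 with vehicle and 6.90 with AS605240, a change of -0.36 against 0.11 to 0.75 (limma, adjusted p = 0.75). GADD45A, a stress protein of the G2 checkpoint, changed by -0.02 against 0.34 to 0.66, SESN1, an inhibitor of mTOR, by -0.12 against 0.25 to 0.58, and CCNG1 by -0.14 against 0.10 to 0.43. TP53I3 was higher in Molt-4, at 0.64 against 0.05 to 0.45, and BAX was within the range of the others.

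TXNIP, which limits glucose uptake, changed by -0.67 in Molt-4 and by -0.28 to 1.04 elsewhere (limma, adjusted p = 0.82). GADD45A, SESN1 and TXNIP are also FOXO targets, yet that list as a whole did not stand apart, with a median change of 0.37 over 31 genes in Molt-4 and 0.22 to 0.55 elsewhere. KLF2, a FOXO target of T cells, went from 4.27 to 5.86, a change of 1.59 against -0.23 to 1.71.

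Glycolysis had a less negative median in Molt-4 than in any other line. The median change of 21 glycolysis genes was -0.04 in Molt-4 and -0.41 to -0.13 in the other lines, and for 11 (52.4%) Molt-4 had the highest change, beside 16.5% of all genes; after centring on array medians the number was 6. SLC2A3, a glucose transporter, changed by 0.22 against -0.84 to -0.13 (limma, adjusted p = 0.82), and the enzymes GPI by 0.21 against -0.34 to -0.05 and ALDOA by 0.06 against -0.45 to -0.17. HK2, a hexokinase, changed by -0.86, within the other lines' changes of -1.23 to -0.38. Among HIF1 targets ADM, a vasodilator peptide, changed by -0.05 against -1.94 to -0.32.

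Cholesterol synthesis had a median change of -0.14 over 22 genes in Molt-4 and -0.80 to -0.15 elsewhere, an order that did not hold after centring on array medians, where Molt-4 ranked 5 of 7 from below. HMGCS1, an early enzyme of the pathway, changed by -0.61 within a range of -2.43 to -0.42. The fatty acid enzyme FASN changed by -0.32 against -0.93 to -0.31.

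Ribosome biogenesis genes moved down in Molt-4. The 77 genes had a median change of -0.53, against -0.55 to -0.20 in the other lines, 72 of them moved down and 31 (40.3%) had their lowest change in Molt-4, beside 14.6% of all genes. All 77 had a signal over 50 in both Molt-4 arrays, while the share of all genes includes dim ones. TAF1D changed by -0.98 against -0.36 to -0.14 (limma, adjusted p = 0.44) and NOP58, a core protein of the particles that modify ribosomal RNA, by -0.96 against -0.49 to -0.17. The 47 Myc targets had a median of -0.185 against -0.397 to -0.189, an order that did not hold after centring on array medians, where Molt-4 ranked 4 of 7 from below, or after quantile normalization, where it ranked 5. Among them was NME1, a nucleotide kinase, at -0.07 against -0.75 to -0.34. Heat shock proteins had their lowest median in Molt-4, with a median of -0.32 over 24 genes against -0.27 to -0.11; CHORDC1, a cochaperone, changed by -1.38 against -1.10 to -0.26. With probe sets averaged per gene, the heat shock median ranked 3 of 7 from below.

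The median change of the stage markers was 0.19 over 27 genes in Molt-4 and -0.01 to 0.13 elsewhere, and after centring on array medians it was 0.0846 against at most 0.077. Molt-4 had the highest change for 7 of the 27 (25.9%), beside 16.5% of all genes. The genes of the T-cell receptor complex did not stand apart, with a median of 0.14 against -0.15 to 0.19. PTCRA went from 9.09 to 10.08, a change of 0.98 against -0.39 to 0.62 (limma, adjusted p = 0.82), and CD1B changed by 0.60 against -0.07 to 0.46. RAG1, already high in Molt-4, changed by 0.15, while it rose by 0.47 to 1.38 in each other line. ID1 and ID3, inhibitors of the E-proteins that act on these genes, changed by 1.10 against -0.07 to 0.69 and by 0.89 against -0.17 to 0.54 (adjusted p = 0.75 and 0.82).

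Of the 36 lists, Molt-4 had the lowest median change of the 7 lines in 4 and the highest in 7. These counts depend on the scaling: they were 12 and 3 after centring on array medians and 7 and 9 after quantile normalization. The median over all genes was 0.0149 in Molt-4 and 0.000601 to 0.0398 in the other lines.

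**Figure D5:**
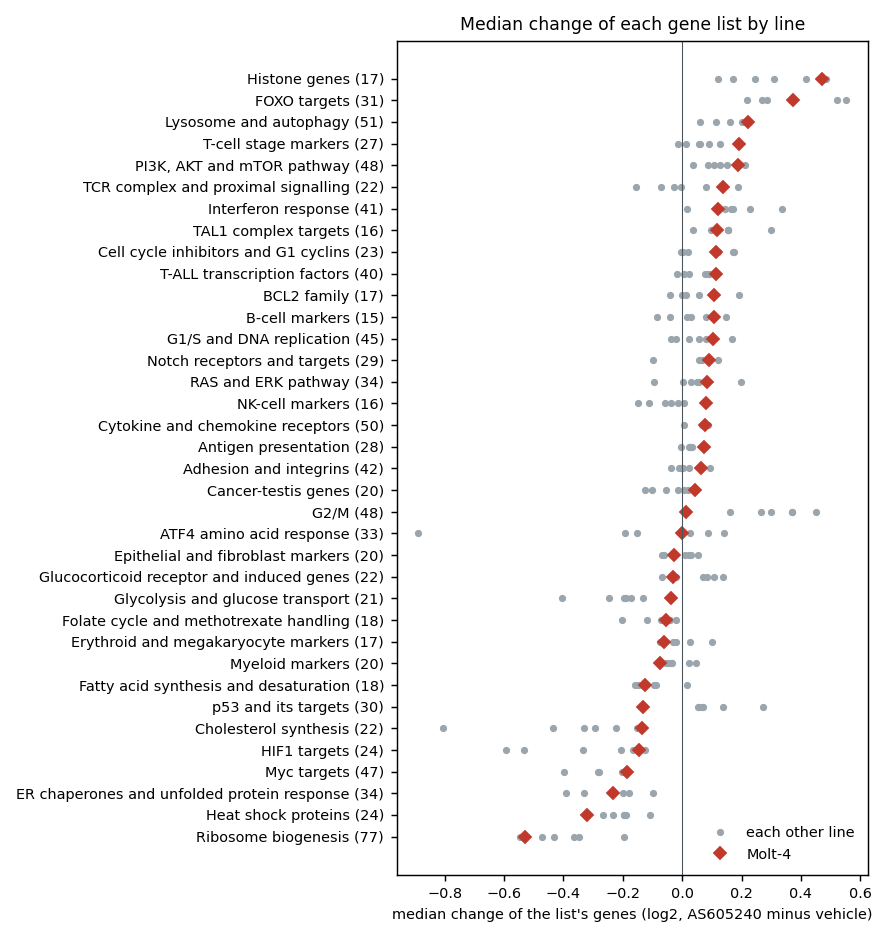
Median change with AS605240 (log2, horizontal) of each of the 36 gene lists, with the number of genes measured in parentheses; red diamonds are Molt-4 and grey points the other 6 lines. Molt-4 has the lowest median of the 7 lines for G2/M (0.01) and p53 targets (-0.13) and the highest for glycolysis (-0.04).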

How the data were processed

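RNA of 14 cultures was measured on Affymetrix HG-U133 Plus 2.0 arrays, 2 arrays for each of 7 T-ALL lines. The deposited values are linear signal intensity values, 1 column per array, made by the authors with Affymetrix Expression Console 1.3.1.187 and the PLIER algorithm. No genome build for them was found in the labels or the methods. No count underlies an array value, and the number of arrays limits the precision. Of 54675 probe sets, 41097 name a single gene in the platform annotation, 1801 several and 11721 none, and 62 are array controls, 6 of which name a gene and are among the 41097. Symbols were updated through gene IDs for 41043.

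Values were used as log2(signal + 16), with the brightest probe set of each of 19775 genes. limma 3.58.1 in R 4.3.3 compared the mean of the Molt-4 arrays with the means of the other 6 lines, and the within-line change in Molt-4 with the changes of the other 6. The 2 arrays of a line were paired because the label gives both the same line. Benjamini-Hochberg adjustment ran over all genes, with calls made at an adjusted p under 0.05 and a difference over 1.5-fold. The procedure was tested on simulated data, with each line drawn independently at the spread of the other 6 lines. That simulation cannot test whether Molt-4 varies as they do. Named genes were the 12 most raised and 12 most lowered called genes with both Molt-4 arrays outside the 12 others, called and next-ranked genes of the response, members of each gene list with the smallest p or a defining role, and the genes that moved opposite to the other lines. Members and lists were chosen with earlier results of these data known. Alternatives varied the offset, scaling, probe set, filter, model and lines included, and those for G2/M, p53, glycolysis and chromosome 6 were chosen after seeing the data.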

Additional observations from a re-analysis of the deposited data

Results flagged for a closer look

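In each of the following, Molt-4 stood apart from the other 6 lines by more than Dixon's criterion for 7 values or by the test of the difference. Chance marks some values in this way when many genes are examined, and the genes were chosen for their difference.

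For levels, the differences on the log2 scale were 5.99 for HBEGF, 5.66 for ZNF677, 5.28 for FXYD6, 4.92 for PPARG, 4.66 for PHACTR3, 4.29 for NPTX2, 4.07 for IRX1, 3.77 for LRIG3, 3.69 for PRAC1, 3.64 for SMIM43, 3.49 for PER3 and 2.50 for LINC01315. On the low side they were -4.39 for MCCC2, -3.84 for KLHL6, -3.25 for ZNF184, -3.06 for IGLC1, -2.77 for HINT3, -2.12 for COCH, -1.89 for MARCHF7, -1.88 for EEIG2, -1.78 for REV3L, -1.77 for GOPC, -1.72 for OSBPL9 and -1.59 for ZUP1.

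For the change with AS605240, the difference between Molt-4 and the other lines was 7.10 for SFRP5, 4.65 for FEZ1, 2.35 for CYP26A1, 2.32 for FOXE1, 2.26 for IFITM3, 2.07 for MZF1-AS1, 1.73 for SPP2, 1.73 for HAPLN3, 1.53 for LINC01700, 1.51 for FAM174B, 1.48 for RUNDC3A and 1.22 for HEMK2. It was -4.78 for CSPG5, -2.67 for GUSBP5, -2.20 for MROH2B and -1.33 for CD300LG.

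The median level difference of the chromosome 6 genes was -0.374. No gene list met Dixon's criterion by its median change in Molt-4.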

How the results depend on the processing

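Against 39 genes called higher and 20 lower in level, the higher count was 11 among genes with a mean signal over 50, 62 over all probe sets, 22 with P12-ICHIKAWA and TALL-1 as 1 line, 25 with vehicle arrays only, 68 with a random replicate block over the arrays of a line, and 17 to 78 with a line left out. The lower count was 11 after median centring, 5 among genes with a mean signal over 50, 0 with the merged lines, 12 with a trended and robust fit, 10 with vehicle arrays only, 13 with AS605240 arrays only, 116 with the random replicate block, and 0 to 30 with a line left out. Higher genes made up 66.1% of calls, 37% with the random block, 76.9% with the trended fit and 77.4% without ALL-SIL. Against 12 and 4 calls for the change, there were 6 higher among genes with a mean signal over 50, 2 lower with the mean of probe sets, and 2 and 1 with no replicate block. Of genes called in the other lines, 445 moved the same way in Molt-4 with an offset of 4, 113 with 64 and 175 with the mean of probe sets. The chromosome 6 median was -0.306 with an offset of 64. COCH turned to 0.19 with the mean of its probe sets. Of 288 values for named level genes, 193 kept their call and 94 lost it, and of 192 for the 16 genes called for the change, 176 kept it and 16 lost it. The causes were not tested. Signals near the floor limit the folds of genes silent in the other lines.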

Other observations

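Interferon-induced genes were uneven in Molt-4. MX1, a GTPase that blocks virus replication, stood at 8.32 with vehicle and 8.13 with AS605240, above the 4.16 to 6.88 of the other arrays (limma, adjusted p = 0.49). HERC6, a ubiquitin ligase of the same response, stood at 6.79 and 6.92 against 5.11 to 5.95 (adjusted p = 0.16). IFITM2 was low, at 4.99 and 5.54, where the median of the other arrays was 11.13. Of 41 interferon genes, both Molt-4 arrays lay above all others for 6 (14.6%, beside 8.08% of all genes) and below for 1 (2.44%, beside 6.49%).

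Among 17 histone genes the median change with AS605240 was 0.47 in Molt-4 and 0.12 to 0.48 elsewhere. H2BC5 went from 6.02 to 7.07, a change of 1.05 against 0.28 to 0.51 (limma, adjusted p = 0.55). ATG5, a gene of autophagosome formation on chromosome 6, stood at 8.35 and 7.80 against 8.65 to 9.57.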
